A study of Mus musculus with 3 samples.

Results

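The natural killer B (NKB) cells of mouse spleen are described here by the genes whose signal on the NKB array lay outside the range spanned by the B cell array and the natural killer (NK) cell array. For each gene name of the array annotation, the log2 intensities of its transcripts were averaged, and the NKB value was set against the higher and the lower of the other 2 values. Of 24203 genes, the NKB value was at least 2-fold above both other arrays in 921 (3.81% of all genes) and at least 2-fold below both in 572 (2.36%), 1493 genes in all. The study hybridised 3 sorted populations, NKB cells, B cells and NK cells. Each came from the spleen of wild-type (WT) C57/BL6 mice of 8 weeks kept free of specific pathogens, with no treatment that differs between them. Total RNA was extracted with TRIZOL, copied into double-strand cDNA from oligo dT primers, labelled with Cy3 and hybridised to NimbleGen arrays. There was 1 array per population. Values therefore have no replicate and were not tested, and their precision is limited by the number of arrays.

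B cells make antibodies and present antigen, and their identity rests on transcription factors such as Pax5 and on the B cell receptor. NK cells kill infected or transformed cells and read MHC class I molecules on their targets through inhibitory receptors. Splenic NKB cells have been described as lymphocytes that carry surface markers of both lineages. RNA of B and NK cells mixed in any proportion would read between the values of both, apart from measurement error, if arrays were comparable. This assumes linear signal and a like distribution of intensities on all arrays. Linearity was not tested, and the upper intensities differed between the arrays, as given below. Whether the NKB values come from such a mixture was not tested.

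The median intensity was 65.1 on the NKB array, 64.3 on the B array and 64.8 on the NK array, while the 99th percentile was 4228 on the NKB array, 3198 on the B array and 2679 on the NK array. The detection level of an array was the intensity under which 95% of 901 olfactory and vomeronasal receptor genes lay, 136 on the NKB array, 149 on the B array and 140.3 on the NK array. Values under it were set to it, and a fold is given as "at least" where it was taken against a detection level, that of B or NK for genes above and that of NKB for genes below. On the NKB array 6024 genes were detected, on the B array 5634 and on the NK array 5959. The B cell markers Cd79a, Cd79b, Ms4a1, Pax5 and Ebf1 were each detected on the NKB array, and Cd79b, a chain of the B cell receptor, read 3893 on the NKB array, against 9943 on the B array and 184 on the NK array. Of 6 NK cell markers, 4 were detected on the NKB array (Ncr1, Klrb1c, Il2rb and Prf1), and Eomes and Nkg7 were under the level. On the B array 1 of the 6 was detected, Ncr1, and on the NK array all 6. The second probe set of Il2rb read 74.6 on the NKB array, under the level. The summed intensity of the 6 markers was 1119 on the NKB array, 391 on the B array and 13791 on the NK array. How the populations were gated is not given in the labels, whose sorting step names LT-HSCs for all 3 samples. Of 3 stem cell markers, 1 was detected on the NKB array, Hlf, and 0 on the B and NK arrays.

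The NKB array lay outside the range of the other 2 more often than either of them did. By any distance, NKB was above both in 9298 genes (38.4%) and below both in 8949 (37%), against 7328 (30.3%) and 7025 (29%) for B relative to NKB and NK, and 7570 (31.3%) and 8222 (34%) for NK relative to NKB and B. With 3 arrays 1 of them must be highest and 1 lowest in each gene. At 2-fold, the B array was above both others in 328 genes (1.36%) and below in 90 (0.372%), and the NK array was above in 417 (1.72%) and below in 294 (1.21%). At 4-fold, NKB was above both in 203 genes (0.839%) and below both in 105 (0.434%). At 8-fold there were 42 genes above and 15 below. Part of this width was also present in genes that spleen cells are not known to use. In the intensities as deposited, 64 of these 901 receptor genes of smell (7.1%) were at least 2-fold above both on the NKB array and 39 (4.33%) below both, against 30 and 6 on the B array and 30 and 13 on the NK array. In the same intensities, 2117 of all 24203 genes (8.75%) were at least 2-fold above both on the NKB array and 1719 (7.1%) below both. With the level, 3 of the 901 receptor genes were above (0.333%) and 5 below (0.555%) on the NKB array. The level was set from these same genes, so few of them could be counted.

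**Figure D1:**
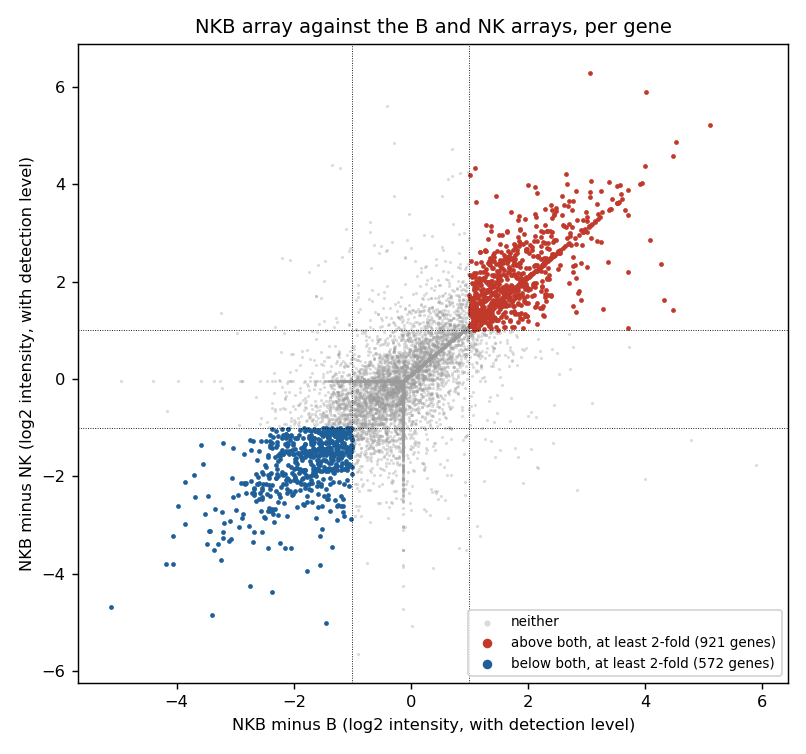
Each point is 1 of the 24203 genes, with the NKB minus B difference on the horizontal axis and the NKB minus NK difference on the vertical axis (log2 intensity, values under an array's detection level set to it). The 921 genes in red lie at least 2-fold above both arrays and the 572 in blue at least 2-fold below both, beyond the dotted lines at 2-fold. The straight grey lines are genes under the detection level on 1 or 2 arrays.

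With values under the detection level set to it, B and NK were within 2-fold of each other in 844 of the 921 genes above (91.6%). The same held in 507 of the 572 below (88.6%) and in 94.9% of all genes. Genes under the level on both arrays count as within 2-fold here, which raises these shares. The genes above had median intensities of 715 on the NKB array, 189 on the B array and 155 on the NK array, and a median distance from the nearer array of 2.82-fold. Those below had medians of 162 on the NKB array, 673 on the B array and 660.0 on the NK array, and a median distance of 2.70-fold. The nearer array was B in 628 of the genes above and NK in 293, and B in 268 of the genes below and NK in 304. For 310 genes above and 228 below, the fold is a lower bound. Brighter genes were outside the range more often, which follows in part from how they were counted. The level keeps dim genes inside: of 18072 genes with a mean log2 under 7, 0.581% were above both and 0 below. The mean also includes the NKB value, so a high NKB value makes a gene count as brighter. These limits hold for each share by brightness given here and below. Among genes with a mean log2 intensity of at least 9 over the 3 arrays, 18.6% were above both and 15.1% below both. Just past the threshold above was Cert1, with 299 on the NKB array, 72.6 on the B array and 54.4 on the NK array, and just short of it was Borcs5, with 385 on NKB, 181 on B and 193 on NK. Just past the threshold below was Tm6sf1, with 303 on NKB, 606 on B and 1176 on NK, and just short of it was Il2rg, the common gamma chain of cytokine receptors, with 1939 on NKB, 3873 on B and 7304 on NK.

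Probe sets of the same gene gave a check within the array. Of 565 genes whose first probe set was at least 2-fold above both arrays, the next probe set was so too in 136 (24.1%), against 5.97% of all 10194 genes with 2 or more probe sets. It was at least 2-fold below both in 11. Of 282 genes whose first probe set was at least 2-fold below both, the next was so too in 49 (17.4%), against 3.17% of all genes, and on the opposite side in 10. In 576 genes above and 409 below there was only 1 probe set. Of the genes with 2 or more, all probe sets lay above both arrays, by any distance, in 278 of 345, and below both in 137 of 163. These genes were called on the mean of the same probe sets, so this agreement follows in large part from how they were chosen. Every probe set was at least 2-fold outside in 90 genes above and 34 below. Genes of this last kind carry more weight below than genes with a single set.

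**Figure D2:**
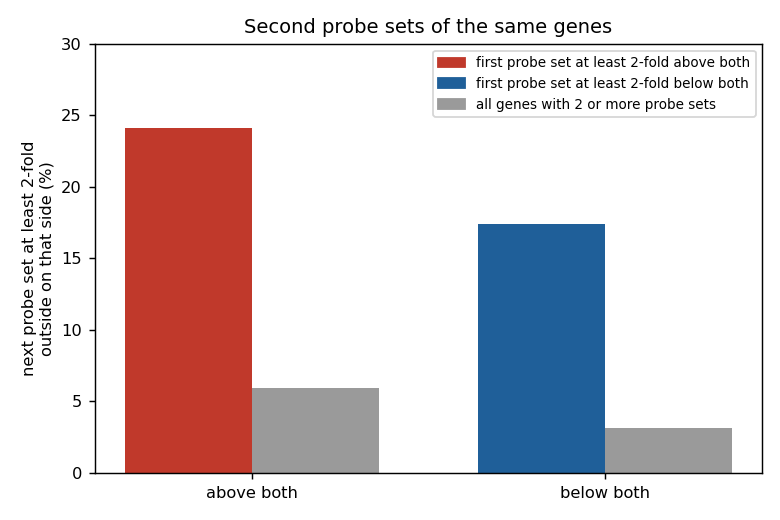
The bars give the share of genes (%) whose next probe set lay at least 2-fold outside the range on that side. Where the first probe set was above both arrays the share was 24.1%, against 5.97% of all genes (grey), and where it was below both it was 17.4%, against 3.17%.

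Among genes with several probe sets, each of them above both arrays, enzymes and transporters of kidney and liver and proteins that bind RNA were furthest above. Ass1 (chromosome 2), which encodes argininosuccinate synthase of arginine synthesis, read 4117 on NKB, 177 on B and 51.6 on NK, 23.2-fold above the nearer array. Slc27a2, a fatty acid transporter and acyl-CoA synthetase, read 2239.7 on NKB, 75.2 on B and 44.7 on NK, at least 14.98-fold above. Dhx9, an RNA helicase, read 2084 on the NKB array, against 159 on the B array and 119.9 on the NK array (13.1-fold), and its 3 probe sets read 3926, 193 and 11919 on the NKB array, each above the other arrays. The middle of these 3 sets was less than 2-fold above. Taf15, an RNA-binding protein, read 2762 on NKB, 231 on B and 175 on NK (11.9-fold). Luc7l3, a splicing factor associated with the U1 particle, read 2029 on NKB, 214 on B and 119 on NK (9.46-fold), and Ybx1, a cold shock protein that binds mRNA, read 3169 on the NKB array, against 404 on the B array and 375 on the NK array (7.84-fold). In each of these genes the B and NK values were close to each other or to the detection level, and the NKB value stood alone.

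Further genes of that rank were Rida, an imine deaminase (at least 11.7-fold), the histone gene H4c11 (at least 12.1-fold), the phosphate transporter gene Slc34a1 (10.8-fold), the chromatin gene Arid4a (9.18-fold), the ribosomal protein gene Rpl36a (8.32-fold) and the complex I gene Ndufb10 (8.00-fold). With a single probe set, Nucb2, which encodes a secreted calcium-binding protein, read 5188 on NKB, 92.6 on B and 47.7 on NK (at least 34.7-fold). Rel, the c-Rel subunit of NF-kB, read 8866 on NKB, 548 on B and 148 on NK (16.2-fold), and Hnrnpul2, of the hnRNP U family, read 8664 on the NKB array, against 543 on the B array and 416 on the NK array (15.96-fold). Cd63, a tetraspanin of late endosomes, read 2299 on NKB, 55.01 on B and 112 on NK (at least 15.4-fold). The others were the small nucleolar RNA gene Snord82 (at least 22.4-fold), the mitochondrial carrier gene Slc25a10 (12.1-fold), the acyl-CoA synthetase gene Acsm1 (at least 11.6-fold) and the cytochrome oxidase gene Cox6c (11.5-fold). These 8 have no second probe set against which to check them.

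**Figure D3:**
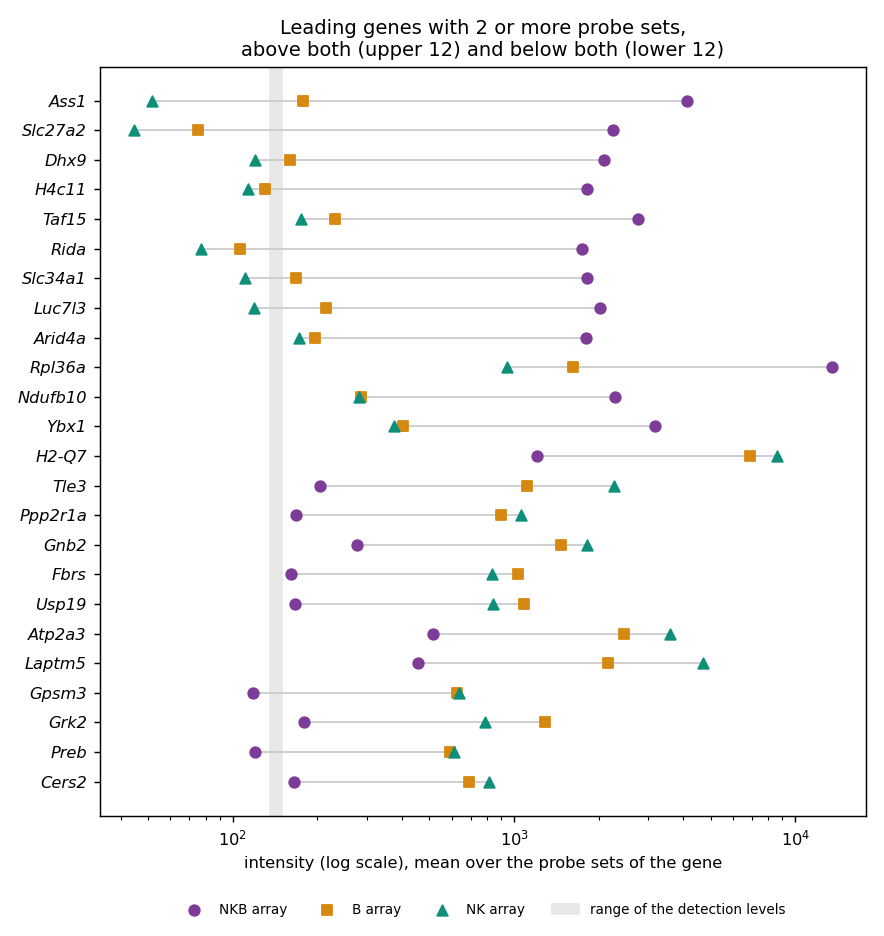
For each gene the 3 points give its intensity on the NKB (circle), B (square) and NK (triangle) arrays, on a log scale, as the mean over its probe sets on the log2 scale; the grey band spans the detection levels of the 3 arrays, 136 to 149. Of genes with 2 or more probe sets, all outside on that side, the 12 furthest above both arrays are on top, from Ass1 with 4117 on the NKB array, and the 12 furthest below are under them, from H2-Q7 with 1203 on the NKB array. In most genes the B and NK points lie close together and the NKB point lies apart.

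Below, genes are grouped by lists of known function, and members past the 2 furthest on each side of a list were picked after their values were seen. Genes of the kidney tubule formed the list with the highest share above. Of 32 on the array, 15 were at least 2-fold above both (46.9%, against 3.81% of all genes) and none below. Lists and members were chosen with earlier results of these data known, so this share describes the list and is not a test. On the NKB array 22 were detected, on the B array 3 and on the NK array 3, and the summed intensity was 18265 on the NKB array, 2328 on the B array and 1909 on the NK array. Besides Ass1, Slc27a2 and Slc34a1, the phosphate transporter of the proximal tubule, these included Miox, the myo-inositol oxygenase of the proximal tubule, with 1407 on NKB, 30.9 on B and 49.5 on NK (at least 9.41-fold). Umod, the uromodulin of the thick ascending limb, read 369 on the NKB array, against 33.5 on the B array and 26.8 on the NK array (at least 2.47-fold), and Aqp2, the water channel of the collecting duct, read 538 on NKB, 56.6 on B and 55.9 on NK (at least 3.60-fold). The androgen-regulated kidney gene Kap read 198 on NKB, 37.96 on B and 31.4 on NK and was short of 2-fold above the levels. Outside the proximal tubule, the thick limb and collecting duct were represented above by Umod and Aqp2 alone. The transporter gene Slc12a1, of the thick limb, and the distal genes Slc12a3 and Calb1 were under the level on all 3 arrays, and Pvalb was under it on the NKB array. In RNA of a sorted population, more cells of a type and more RNA per cell cannot be told apart, and the part of kidney RNA in the other results was not tested.

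Of 85 subunits of the oxidative phosphorylation complexes, 18 were at least 2-fold above both (21.2%) and 4 below (4.71%), with a median NKB minus mean of B and NK of 0.39 (log2), against -0.0046 over all genes. Over all genes, 3.81% were above and 2.36% below, and among those with a mean log2 intensity of 7 to 9, where the median member of the list lies, 11.7% were above and 7.62% below. Cox6c, of complex IV, read 2748 on the NKB array, against 239 on the B array and 176 on the NK array. Ndufb10, of complex I, read 2292 on NKB, 286 on B and 281 on NK, with both probe sets more than 2-fold above. Ndufa12 and Ndufs4, also of complex I, were 7.26-fold and at least 5.82-fold above, Uqcr10, of complex III, 5.54-fold, and Atp5b, the catalytic subunit of ATP synthase, 2.98-fold. On the other side, Atp5g3, 1 of the genes for the c subunit of the ATP synthase rotor, read 96.3 on NKB, 1082 on B and 873 on NK (at least 6.44-fold below), and Uqcrh, of complex III, read 132 on the NKB array, against 348 on the B array and 396 on the NK array (at least 2.57-fold below). Of 78 mitochondrial ribosomal proteins, whose median mean log2 intensity was 6.89, 12 were above (15.4%) and 1 below (1.28%). Mrpl39 read 2719 on NKB, 300.2 on B and 225 on NK (9.06-fold), and Mrpl37 read 84.1 on NKB, 348 on B and 380.1 on NK and was at least 2.56-fold below. Of 36 enzymes of glycolysis and the TCA cycle, 5 were above (13.9%, near the share of all genes of that brightness) and none below, led by the lactate dehydrogenase gene Ldhb (at least 6.24-fold) and the malate dehydrogenase gene Mdh1 (2.54-fold).

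**Figure D4:**
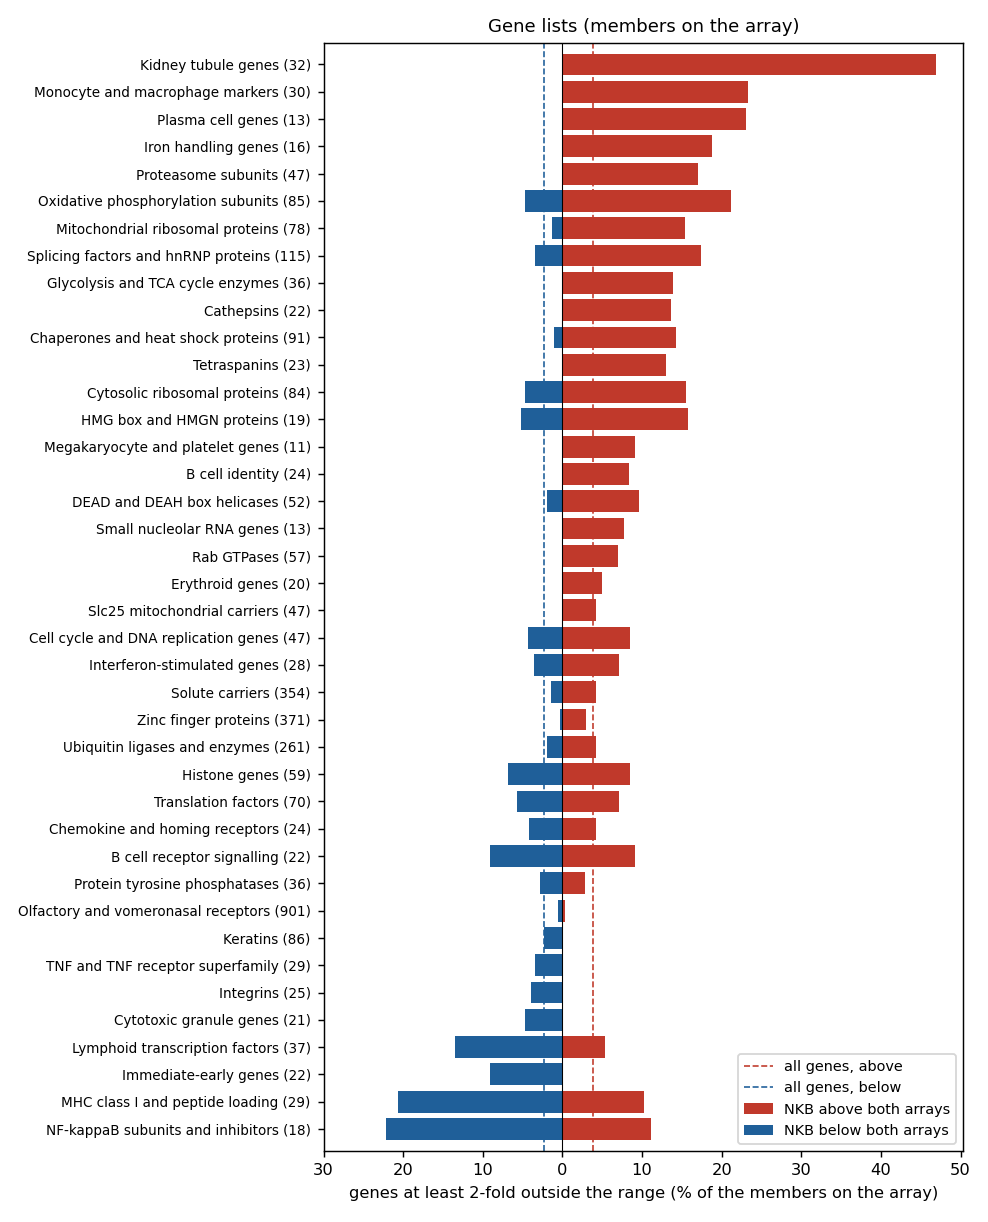
Bars give the share of each list's members on the array (number in brackets) that lay at least 2-fold above both arrays (red, to the right) or below both (blue, to the left); dashed lines mark the shares over all genes, 3.81% above and 2.36% below. The kidney tubule list reaches 46.9% above, and the NF-kB and MHC class I lists reach 22.2% and 20.7% below. Lists with no gene outside the range are not drawn. The lists were chosen with earlier results of these data known.

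Of 115 splicing factors and hnRNP proteins, 20 were above (17.4%) and 4 below (3.48%), with a median difference of 0.46 (log2). Srsf1, a serine and arginine rich splicing factor, read 1661 on the NKB array, against 380.2 on the B array and 159 on the NK array (4.37-fold). Rbm39 had 8 probe sets, all above both arrays, and read 2038 on NKB, 613 on B and 541 on NK (3.33-fold). Hnrnpa2b1 was 3.91-fold above with 3 probe sets, each at least 2-fold. Sf3a2, of the U2 particle, read 421 on NKB, 1345 on B and 1288 on NK and was 3.06-fold below, and Ptbp1, a repressor of exon inclusion, was 2.15-fold below with 3 probe sets. Of 52 DEAD and DEAH box helicases, 5 were above (9.62%) and 1 below (1.92%). After Dhx9 came Ddx1 (7.51-fold) and Dhx15 (5.59-fold), and Ddx3x read 74.97 on the NKB array, against 437 on the B array and 334 on the NK array, at least 2.46-fold below. The background for these lists lies over 3.81%, since 11.7% of all genes with a mean log2 intensity of 7 to 9 were above both and 7.62% below both, and the median member had a mean log2 intensity of 7.61 in the splicing list and of 7.04 in the helicase list.

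Genes for protein folding and breakdown were above in part. For comparison, 3.81% of all genes were above and 2.36% below, and of those of mean log2 7 to 9, 11.7% and 7.62%. The median member had a mean log2 intensity of 6.89 among the chaperones and of 7.95 among the proteasome subunits. Of 91 chaperones and heat shock proteins, 13 were above (14.3%) and 1 below (1.1%). Cct5, of the TRiC ring that folds actin and tubulin, read 4790.3 on NKB, 902 on B and 429 on NK (5.31-fold), and its partners Cct8 and Tcp1 were 3.45-fold and 2.49-fold above. Hsp90b1, the HSP90 of the endoplasmic reticulum, read 3555 on NKB, 689 on B and 561 on NK (5.16-fold), and both probe sets were at least 2-fold above. The constitutive chaperone gene Hspa8 read 195 on the NKB array, against 503 on the B array and 601 on the NK array and was 2.58-fold below. Of 47 proteasome subunits, 8 were above (17%) and none below. Psmd6 and Psmc5, of the regulatory particle, were at least 7.64-fold and 3.62-fold above, and Psma7, of the core, 3.54-fold.

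Cytosolic ribosomal proteins went both ways. Of 84, 13 were above (15.5%) and 4 below (4.76%), and their median difference was 0.03 (log2). Of the 84, 67 had a mean log2 intensity of at least 9, and over all such genes 18.6% were above and 15.1% below. Rpl36a read 13454 on NKB, 1617 on B and 943 on NK, and Rpl21 and Rpl29 were 5.41-fold and 4.99-fold above. Rps2 read 767 on NKB, 1755 on B and 1645 on NK and was 2.14-fold below, with all 6 probe sets below both arrays. Rpl10 was 2.27-fold below by its mean, but 2 of its 3 probe sets lay above both arrays, so that its direction rests on 1 probe set. After quantile normalization, which takes away the wider distribution of the NKB array, 9 were above and 6 below. Eef1a1, the elongation factor that brings tRNA to the ribosome, read 10191 on the NKB array, against 33494 on the B array and 28341 on the NK array and was 2.78-fold below, with all 5 probe sets below both arrays. Of 70 translation factors, 5 were above (7.14%) and 4 below (5.71%), under the 11.7% and 7.62% of all genes of mean log2 7 to 9. These families have many processed copies in the genome, and probes may not tell a gene from its copies.

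Of 59 histone genes, 5 were above (8.47%), 4 of them for histone H4 and 1 for H2B, and 4 were below (6.78%), 3 of them for H3 and the variant gene Macroh2a1. Both shares were near or under those of all genes of mean log2 7 to 9 (11.7% and 7.62%). H4c11 read 1815 on NKB, 129.6 on B and 113 on NK and H4c4 read 1559 on NKB, 71.9 on B and 90.5 on NK (at least 10.4-fold), while H3c11 read 680.1 on the NKB array, against 2628 on the B array and 1581 on the NK array (2.33-fold below) and Macroh2a1 read 120.5 on NKB, 438 on B and 398 on NK (at least 2.94-fold below). Histone genes of 1 class are near copies of each other, so the H4 members are not independent. Hmgb2, a DNA-bending protein, read 3414 on NKB, 176 on B and 668 on NK (5.11-fold), and Hmga1, which binds AT-rich DNA, read 128 on the NKB array, against 510.1 on the B array and 519 on the NK array (at least 3.76-fold below, with all 3 probe sets at least 2-fold). Of 47 cell cycle and replication genes, 4 were above (8.51%) and 2 below (4.26%). Mki67, the antigen of dividing cells, read 993 on NKB, 129 on B and 148 on NK (at least 6.65-fold), with all 3 probe sets at least 2-fold above, and Pola1, of DNA polymerase alpha, read 871 on NKB, 34.7 on B and 47.97 on NK (at least 5.83-fold). Top2a was at least 2.89-fold above, and the helicase subunit gene Mcm4 read 129 on the NKB array, against 318 on the B array and 394 on the NK array and was at least 2.34-fold below.

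Over all genes, 3.81% were above both arrays and 2.36% below; genes chosen for differing between B and NK cells have a wide range to lie in. None of 24 NK cell identity genes and none of 21 Ly49 receptors was outside by 2-fold on either side, and neither was any of 14 genes of MHC class II presentation. Of 24 B cell identity genes, 2 were above (8.33%) and none below. Pax5 (chromosome 4) read 10954 on NKB, 1310.3 on B and 77.4 on NK (8.36-fold) on its single probe set. Ms4a1, which encodes CD20, read 2562 on NKB, 1268 on B and 97.3 on NK (2.02-fold), and 1 of its 2 probe sets was at least 2-fold above. After quantile normalization, 1 of the 24 B cell identity genes was above both. The markers Cd79a, Cd79b and Ebf1 were not above the B array. Cd79a read 4056 on the NKB array, against 4977 on the B array and 48.5 on the NK array and Ebf1 read 545 on NKB, 581 on B and 44.7 on NK. Of 13 plasma cell genes, 3 were above (23.1%). Irf4, which plasma cells need, read 1739.5 on NKB, 330.0 on B and 147 on NK (5.27-fold). Jchain, the joining chain of IgM and IgA, read 499.7 on the NKB array, against 65.95 on the B array and 56.6 on the NK array (at least 3.34-fold), and Mzb1, an immunoglobulin chaperone, read 870.5 on NKB, 359 on B and 56.5 on NK (2.42-fold), each on 1 probe set. Other plasma cell genes were under the detection level on the NKB array and above it on the others, short of 2-fold below: Xbp1 read 79.99 on NKB, 202 on B and 189 on NK, Sdc1 read 56.04 on the NKB array, against 159 on the B array and 196 on the NK array and Prdm1 read 75.3 on NKB, 155 on B and 244 on NK. Without a detection level, 4 plasma cell genes were above both and 3 below.

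Of 37 lymphoid transcription factors, 2 were above (5.41%) and 5 below (13.5%). Their median mean log2 intensity was 8.20 and 10 were at 9 or more, and the share below was 7.62% over all genes of 7 to 9 and 15.1% over those of at least 9, so this share is near that of genes as bright. Besides Irf4, Bcl6, the repressor of germinal centre B cells, read 478 on NKB, 221 on B and 82.7 on NK (2.17-fold). Below both, Id3, an inhibitor of E proteins, read 138 on the NKB array, against 649 on the B array and 434 on the NK array (3.13-fold), Stat6, the factor of interleukin 4 signals, read 274 on NKB, 819.6 on B and 748 on NK (2.73-fold), and Foxo1 read 430.5 on NKB, 1795 on B and 1035 on NK (2.40-fold). Runx3 read 47.5 on the NKB array, against 301 on the B array and 956 on the NK array (at least 2.22-fold). Stat3 was 2.25-fold below by its mean, with 1 probe set at 3439 on the NKB array, 2555 on the B array and 3828 on the NK array, and the other at 181 on the NKB array, 1238 on the B array and 1769 on the NK array. All but Stat3 were on 1 probe set.

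Among genes with several probe sets, H2-Q7, described below, was furthest below both arrays. Tle3, a Groucho corepressor, read 205 on NKB, 1114 on B and 2261 on NK (5.45-fold below the nearer array), with all 3 probe sets at least 2-fold below. Ppp2r1a, the scaffold of phosphatase PP2A, read 168 on NKB, 897 on B and 1059.8 on NK (5.34-fold), and Gnb2, a G protein beta subunit, read 275 on the NKB array, against 1469 on the B array and 1816 on the NK array (5.33-fold). Atp2a3, the SERCA3 calcium pump of blood cells, read 514 on NKB, 2464 on B and 3592 on NK (4.80-fold). Laptm5, a lysosomal protein of blood cells that lowers antigen receptors on lymphocytes, read 455 on NKB, 2149.6 on B and 4697 on NK (4.72-fold), and its 3 probe sets read 435, 499.8 and 433 on the NKB array, each at least 2-fold below both others. Grk2, a kinase that turns off G protein coupled receptors, read 179 on the NKB array, against 1291 on the B array and 788 on the NK array (4.40-fold). Usp19, a deubiquitinase, was 5.08-fold below, Fbrs 5.19-fold, Gpsm3, a modulator of G proteins, at least 4.63-fold, Preb, of vesicle export from the endoplasmic reticulum, at least 4.37-fold, and Cers2, a ceramide synthase, 4.20-fold.

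Among genes with 1 probe set, Itgb7, the beta 7 integrin of gut homing, read 63.5 on NKB, 1244 on B and 1061 on NK (at least 7.82-fold), and Tnfsf11, the cytokine RANKL, read 101 on NKB, 1554 on B and 929 on NK (at least 6.85-fold). Ret, a receptor tyrosine kinase, read 145 on the NKB array, against 1566 on the B array and 1262 on the NK array (8.72-fold) and Tmem88 read 153 on NKB, 1119.6 on B and 1054 on NK (6.88-fold). Genes that lymphocytes are not known to use were among them as well. The olfactory receptor gene Olfr447 read 143 on NKB, 1349 on B and 1870.3 on NK (9.46-fold), the cornified envelope gene Lce1h was at least 6.83-fold below and the defensin gene Defb9 at least 6.39-fold. Of 86 keratin and keratin-associated genes, 2 were below (2.33%, against 2.36% of all genes). Of these 2, Krtap5-1 read 2128 on the NKB array, against 8206 on the B array and 9188 on the NK array. On the B and NK arrays these genes were bright, and what their probes measure there was not tested.

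Other genes with every probe set at least 2-fold below, chosen after their values were seen, included kinases and adaptors of cytokine and antigen receptors. Jak3, the kinase of the common gamma chain, read 167 on the NKB array, against 583 on the B array and 794 on the NK array, with 4 probe sets (3.49-fold). Akt1 read 204 on the NKB array, 530.5 on the B array and 839 on the NK array (2.60-fold), and the adaptor gene Shc1 read 181 on the NKB array, 673 on the B array and 649 on the NK array (3.59-fold). E2f4, a factor of quiescent cells, read 139 on the NKB array, 602 on the B array and 571 on the NK array (4.11-fold). Ehmt2, the histone methyltransferase G9a, read 275 on the NKB array, 968 on the B array and 1222 on the NK array (3.53-fold). Of 22 genes of B cell receptor signalling, 2 were above (9.09%) and 2 below (9.09%). Near these shares, 11.7% of all genes of mean log2 7 to 9, where the median member lies, were above and 7.62% below. Rasgrp3 read 715 on NKB, 203 on B and 36.4 on NK (3.52-fold) and Malt1 was 2.14-fold above with 1 of 3 probe sets on the other side. Bcl10, the partner of Malt1, read 127 on NKB, 437 on B and 344 on NK (at least 2.54-fold below), and Pik3cd, the PI3K delta catalytic subunit, read 222 on the NKB array, against 533 on the B array and 601 on the NK array (2.40-fold below, with all 5 probe sets below both). Of 22 immediate-early genes, 2 were below (9.09%) and none above. In this list 12 members had a mean log2 of at least 9, and over all such genes 15.1% were below and 18.6% above. Jund read 403 on NKB, 1854 on B and 1109 on NK (2.75-fold) and the phosphatase gene Dusp2 read 268 on NKB, 779.5 on B and 1197 on NK (2.91-fold).

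MHC class I and NF-kB formed the lists with the highest shares below. NF-kB dimers of Rel proteins are held in the cytoplasm by inhibitors such as IkB alpha, encoded by Nfkbia, and class I genes are among the genes they activate. The promoters of Rel, which was above both arrays, and of Nfkbia, H2-Q7 and H2-K1, which were below both, are shown to set the start regions of genes on opposite sides next to each other. The sequences are from RefSeq (GRCm38.p6) and run 5′ to 3′ on the strand of the gene, from 250 bases before its start to 50 after. Capitals mark the CCAAT box (CCAAT), the GC box (GGGCGG) and the TATA box (TATAAA), searched on both strands, which 37.4%, 35.9% and 13.6% of 32544 promoters of the same length hold.
H2-K1 (chr17:34000298-34000597, minus strand): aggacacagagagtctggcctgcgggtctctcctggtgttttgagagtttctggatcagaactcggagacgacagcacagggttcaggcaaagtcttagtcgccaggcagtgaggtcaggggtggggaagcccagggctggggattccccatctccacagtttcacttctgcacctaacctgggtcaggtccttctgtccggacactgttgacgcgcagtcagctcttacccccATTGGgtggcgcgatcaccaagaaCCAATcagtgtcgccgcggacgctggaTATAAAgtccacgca
H2-Q7 (chr17:35438905-35439204, plus strand): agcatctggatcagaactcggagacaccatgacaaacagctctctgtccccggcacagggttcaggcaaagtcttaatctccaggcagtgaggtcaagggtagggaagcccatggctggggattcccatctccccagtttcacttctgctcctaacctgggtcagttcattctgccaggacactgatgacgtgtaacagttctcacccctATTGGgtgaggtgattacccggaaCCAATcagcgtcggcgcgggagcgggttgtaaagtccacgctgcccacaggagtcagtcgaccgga
Nfkbia (chr12:55492598-55492897, minus strand): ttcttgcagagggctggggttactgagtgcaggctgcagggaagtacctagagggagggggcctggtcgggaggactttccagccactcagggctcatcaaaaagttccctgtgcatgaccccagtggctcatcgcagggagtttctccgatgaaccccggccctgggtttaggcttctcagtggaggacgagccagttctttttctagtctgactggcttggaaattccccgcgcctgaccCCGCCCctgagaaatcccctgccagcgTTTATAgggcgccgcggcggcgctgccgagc
Rel (chr11:23770920-23771219, minus strand): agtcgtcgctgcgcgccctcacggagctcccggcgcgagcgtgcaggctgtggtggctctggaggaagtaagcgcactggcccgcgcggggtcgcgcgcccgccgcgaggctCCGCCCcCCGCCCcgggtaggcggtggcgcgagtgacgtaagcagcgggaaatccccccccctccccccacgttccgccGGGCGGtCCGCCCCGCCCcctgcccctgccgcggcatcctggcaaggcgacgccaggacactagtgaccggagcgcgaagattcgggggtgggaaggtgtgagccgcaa
H2-K1 and H2-Q7 each held the CCAAT box on both strands, and H2-K1 also a TATA box, 35 bases past the annotated start. Nfkbia held 1 GC box and 1 match to the TATA box, both on the strand opposite to the gene. Rel held 5 GC boxes, 2 of which overlap by a base, and neither of the other boxes, and its window was richer in CG dinucleotides (42, against 15 in Nfkbia, 12 in H2-Q7 and 14 in H2-K1). A match describes these letters, and shows neither binding nor a cause of the values.

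Of 29 genes of MHC class I and peptide loading, 6 were below both (20.7%) and 3 above (10.3%), with a median difference of -0.73 (log2). The list is bright, with 16 members at a mean log2 of at least 9, and over all such genes 15.1% were below and 18.6% above, so its share below is near that of genes as bright. H2-Q7 (chromosome 17) read 1203 on the NKB array, against 6879 on the B array and 8639 on the NK array (5.72-fold below), but its 2 probe sets were unequal. The first read 1380.3 on the NKB array, 2040.1 on the B array and 2109 on the NK array, and the second read 1049 on the NKB array, 23197 on the B array and 35387 on the NK array. H2-K1, a classical heavy chain, read 1101 on NKB, 2364 on B and 3688 on NK (2.15-fold below), with all 3 probe sets below both arrays and 1 of them at least 2-fold. The classical gene H2-D1 read 6217 on NKB, 10465 on B and 12317 on NK and was short of 2-fold, while the neighbour of H2-Q7 in the Q region, H2-Q6, read 7158 on the NKB array, against 5255 on the B array and 9126 on the NK array and was inside the range. B2m, the light chain of all class I molecules, read 10885 on NKB, 6405 on B and 8602 on NK and was above both arrays, short of 2-fold. H2-T10 and H2-Q10 were 3.53-fold and 3.81-fold below, and H2-T10 had every one of its 3 probe sets at least 2-fold below. Of the loading machinery, Tap1, the peptide transporter, read 104 on NKB, 315 on B and 273 on NK (at least 2.02-fold below) and the peptide editor Tapbpl read 178 on the NKB array, against 704 on the B array and 738 on the NK array (3.96-fold below). Above both were the chaperones Pdia3, with 5202 on NKB, 1414 on B and 1802 on NK (2.89-fold), and Canx (2.53-fold), and the immunoproteasome subunit Psmb8 (2.18-fold). Heavy chain genes are near copies of each other, and their probes may share signal.

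Of 18 NF-kB subunits, inhibitors and regulators, 4 were below both (22.2%) and 2 above (11.1%), with a median difference of -0.51 (log2). Over all genes of mean log2 7 to 9, where the median member lies, 7.62% were below and 11.7% above. The subunits lay on opposite sides. Rel (chromosome 11) read 8866 on NKB, 548 on B and 148 on NK, above both on its single probe set. Rela, the p65 subunit, read 161 on the NKB array, against 431 on the B array and 459 on the NK array (2.67-fold below), with both probe sets below both arrays, and Relb read 127 on NKB, 339.5 on B and 287 on NK (at least 2.12-fold below), with all 3 below. Nfkb1, the p50 precursor, read 417 on NKB, 488 on B and 424 on NK and was just below both, and Nfkb2 read 124 on the NKB array, against 517 on the B array and 258 on the NK array, under the detection level on NKB and short of 2-fold. Of the inhibitors, Nfkbia (chromosome 12) read 271 on NKB, 1084 on B and 1059 on NK (3.91-fold below) and Nfkbib read 128 on NKB, 368 on B and 292 on NK (at least 2.15-fold below). Traf3, a regulator of the alternative NF-kB pathway, read 801 on the NKB array, against 301 on the B array and 135 on the NK array (2.67-fold above). Rel and Nfkbia have 1 probe set each, and no NF-kB gene with several had all of them at least 2-fold outside. In the class I list, Pdia3 and H2-T10 did.

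**Figure D5:**
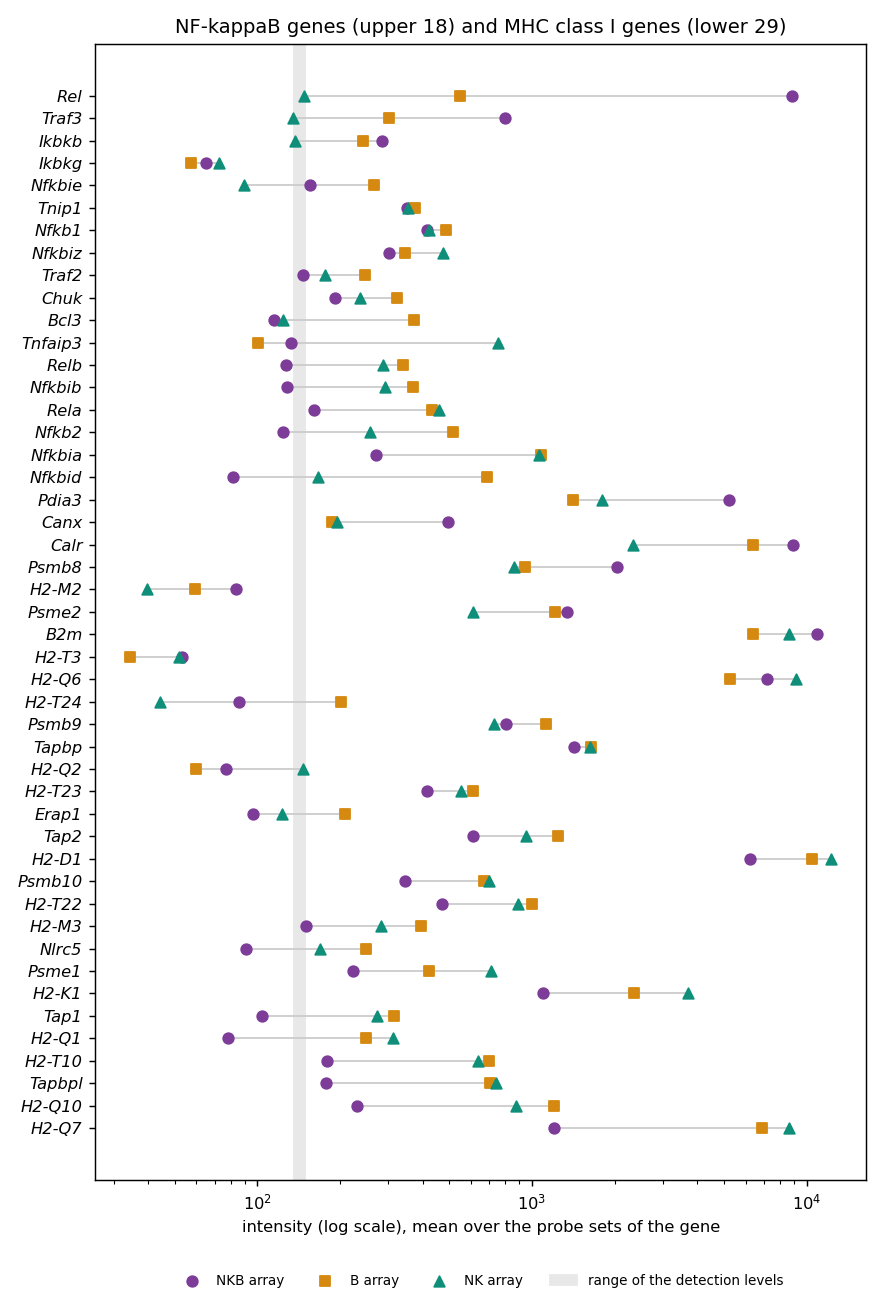
Points give the intensity of each gene on the NKB (circle), B (square) and NK (triangle) arrays on a log scale, ordered within each list by NKB against the mean of the other arrays; the grey band spans the detection levels. In the upper list Rel, with 8866 on the NKB array, lies far above the other arrays, and Nfkbia, with 271, lies below both. In the lower list H2-Q7, H2-Q10, Tapbpl and H2-T10 are furthest below, while B2m, with 10885 on the NKB array, lies above both.

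Markers of other cells were partly higher on the NKB array. For comparison, 3.81% of all genes were above both and 2.36% below, and of those of mean log2 7 to 9, 11.7% and 7.62%. Of 30 monocyte and macrophage markers, 7 were above both (23.3%) and none below, and 18 were detected on the NKB array, 5 on the B array and 19 on the NK array. Their summed intensity was 23761 on the NKB array, 3693 on the B array and 18268 on the NK array. Much of the NKB sum came from Ctsb, with 7916 on the NKB array and 2944 on the NK array, and from Apoe. Other members read lower on the NKB array than on the NK array, among them Cd68 (187 against 770) and both probe sets of Ctsd. With the level at the 99th percentile, 3 members were above both arrays. Apoe, a lipid carrier of macrophages and liver, read 4986 on NKB, 592 on B and 674 on NK (7.40-fold), with both probe sets at least 2-fold above. Vcam1, of red pulp macrophages and stroma, read 646 on NKB, 57.6 on B and 175 on NK (3.69-fold), Axl, a receptor for dying cells, at least 3.33-fold, and Spic, the factor of red pulp macrophages, read 375 on the NKB array, against 76.98 on the B array and 131 on the NK array (at least 2.51-fold). C1qb, of complement, read 1951 on NKB, 113 on B and 947 on NK (2.06-fold), and Lyz2 read 671 on NKB, 93.7 on B and 2388 on NK and was inside the range. The haemoglobin gene Hbb-b1 read 5583 on the NKB array, against 252 on the B array and 2083 on the NK array (2.68-fold), the 1 gene above of 20 erythroid genes (5%). Of 16 iron handling genes, 3 were above (18.8%), namely Trf, Fth1 and Ireb2 (3.06-fold, 2.67-fold and 2.56-fold). After quantile normalization, 5 of the monocyte and macrophage markers, 0 of the erythroid genes and 2 of the iron handling genes were above both. Of 18 T cell markers, 17 neutrophil markers, 12 dendritic cell markers, 22 stromal and endothelial genes and 17 stem and progenitor genes, none was outside on either side by 2-fold. No gene of 22 cytokines and 37 chemokines was either. The part of these cells in the other results was not tested.

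Smaller families held single genes apart from their neighbours. For comparison, 3.81% of all genes were above and 2.36% below, and of those of mean log2 7 to 9, 11.7% and 7.62%. Of 23 tetraspanins, 3 were above (13%), and after Cd63 these were Tspan13 (4.89-fold) and Cd53 (3.13-fold). Of 22 cathepsins, 3 were above (13.6%), led by Ctsb with 7916 on NKB, 809.7 on B and 2944 on NK (2.69-fold). Of 57 Rab GTPases, 4 were above (7.02%) and none below, led by Rab11a of recycling endosomes (4.95-fold). Of 28 interferon-stimulated genes, 2 were above (7.14%), Ifit3 and Mx2 (2.93-fold and at least 2.56-fold), and 1 below (3.57%), the regulator Irf7, with 93.2 on NKB, 324 on B and 379 on NK (at least 2.39-fold). Of 24 chemokine and homing receptors, Gpr183, which guides B cells to the outer follicle, was 2.57-fold above (4.17%) and Itgb7 below (4.17%). Of 371 zinc finger proteins, 11 were above (2.96%) and 1 below (0.27%), of 354 solute carriers 15 (4.24%) and 5 (1.41%), and of 261 ubiquitin ligases and enzymes 11 (4.21%) and 5 (1.92%). Ube2j1, an ubiquitin-conjugating enzyme of the endoplasmic reticulum, stood out among the last with 4800.4 on the NKB array, against 366 on the B array and 464 on the NK array (10.4-fold).

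The 2 sides also differed in properties that the intensities did not define. Protein-coding genes above had a median genomic span of 22095 bases (748 genes), against 11935 bases below (342 genes) and 18506 bases over all detected protein-coding genes. Over 5 groups of equal size by span, from short to long, the share below both was 7.48%, 5.9%, 4.89%, 4.17% and 2.16%, while the share above was 9.35%, 9.21%, 11.4%, 13.1% and 10.8%. The median NKB minus mean of B and NK was -0.28 in the shortest group and 0.37 in the longest (log2). Of genes with a biotype in the reference table, pseudogenes made up 11.1% of those above and 23.9% of those below, against 5.48% of all genes. Across chromosomes 1 to 19 and X the share above ranged between 2.54% and 5.73% and the share below between 0.896% and 3.21%. A promoter sequence was at hand for 66.4% of the genes above and 51.6% of those below, so a check of promoter composition over the sets would be void and was not made.

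The authors' deposited tables hold 2-fold lists of NKB against each other population, without a test. In the authors' deposited tables, 2045 transcripts of 1677 genes are listed as higher in NKB against both, and 2974 transcripts of 2537 genes as lower against both. Of the 921 genes above, 765 were among those that the authors' deposited tables list as higher, and of the 572 below, 571 were among those listed there as lower. How these tables were filtered is not stated in the labels. Recomputed without a detection level, 5162 transcripts were at least 2-fold above both and 3892 below both.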

How the data were processed

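For every array the authors deposited linear intensities by transcript. RMA is the tool in the submitters' processing notes, with no version. Of 44170 transcripts, 44155 have 3 probes per the file headers. No further normalization was applied. The authors' deposited log2 ratios were recomputed from the intensities, with a largest difference of 0.

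The 41886 transcripts with a gene name were averaged on the log2 scale into 24203 genes, 10194 of them with 2 or more probe sets. Symbols shown were updated by gene identifier through a RefSeq table (GRCm38.p6), which held 39057 transcripts and changed the symbol of 5650. Values under the detection level of an array (the 95th percentile over 901 genes for olfactory and vomeronasal receptors) were set to it, and a gene was counted when NKB lay at least 2-fold above the higher or below the lower of B and NK. The number of arrays limits the precision, and no test was made.

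The genes named are the 12 furthest above and below with 2 or more probe sets, all outside on that side, the 8 furthest with 1 probe set, the 2 furthest on each side of 50 gene lists, and markers, leaving out genes with predicted or clone names in the files. Members and lists were chosen with earlier results of these data known. Steps were tested on simulated data, and Python 3.11.15, numpy 2.4.6, pandas 2.3.3 and matplotlib 3.10.9 were used.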

Additional observations from a re-analysis of the deposited data

How the results depend on the processing

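No paired analysis was possible because each population had 1 array. The counts above and below both arrays, 921 and 572, were 869 and 604 after quantile normalization over genes, 936 and 569 when arrays were shifted to a common median, 946 and 604 with the median of the probe sets, 666 and 443 where every probe set had to be at least 2-fold outside (genes with 1 probe set included), and 921 and 572 with updated symbols. Without a detection level they were 2117 and 1719, with the level at the 99th percentile 418 and 346, with the level at each array's median 1555 and 1140, over transcripts 2325 and 1305, and at 4-fold 203 and 105. In settings chosen after seeing the data, they were 826 and 459 without pseudogenes and 345 and 163 over genes with 2 or more probe sets. More genes were above than below in each of these settings, with 61.7% above as reported and 54.7% to 67.9% in the others. By any distance 18247 genes were outside the range, 18262 after quantile normalization, 17929 after the shift and, over transcripts, 33150. Of 124 genes named by the rule, 119 stayed past 2-fold after quantile normalization, 124 after the shift and 92 with the 99th percentile level, which leaves more genes at the level. The shift moved the median difference of NKB from the mean of B and NK over all genes to -0.09 (log2), and quantile normalization to -0.06. Signal over background limits the dim genes, whose folds are lower bounds.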

Other observations

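Transcripts without a gene name, 2284 in all, took no part in the gene counts. Of these, 68 were at least 2-fold above both arrays on the NKB array and 58 below both. Of 155 T cell receptor transcripts among them, none was above and 5 were below, and 27 were detected on the NKB array, 20 on the B array and 63 on the NK array. Of 22 immunoglobulin transcripts, none was outside the range by 2-fold, and 9 were detected on the NKB array, 11 on the B array and 8 on the NK array.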
